A study of Mus musculus with 6 samples.

Results

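The 9 genes described here are the EGR zinc finger genes Egr1, Egr2, Egr3 and Egr4, the orphan nuclear receptor genes Nr4a1, Nr4a2 and Nr4a3, and Nab1 and Nab2, which encode corepressors that bind EGR proteins. They were taken by symbol through the Entrez number of each row, and all 9 had a row among the 25206 rows of the expression table. The families were chosen by their known roles and with their knockout minus control differences in these data already in view, so those differences, their intervals and whether a row is past the threshold of the fit over all rows are given as a description of the table and are not used as evidence. Expression was measured on arrays in a mouse ILC2 line of the C57BL/6J background. Group-2 innate lymphoid cells (ILC2s) lack rearranged antigen receptors and release type 2 cytokines when they sense IL-33. Both groups were grown with 10 ng/ml each of the cytokines IL-2 and IL-33, both were transduced with the lentiviral vector LentiV2CRISPRGFP, and from both the GFP+ cells were sorted 6 days after transduction. The control group carried a non-target guide and the knockout group a guide against CBFβ, the subunit that steadies RUNX transcription factors on DNA, with 3 arrays each. Nothing in the labels tells whether replicates were grown apart, so every p-value here reflects sample-to-sample spread that may be technical. Neither cloning, nor a guide sequence, nor the edit reached is described there. All cells were under cytokine at a single time, so the values are levels in steadily stimulated cells and not a response over minutes.

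EGR and NR4A genes are immediate early genes: their promoters are held ready, and receptor signals through ERK, calcium and cyclic AMP switch them on without new protein synthesis. EGR proteins bind GC-rich DNA through C2H2 zinc fingers, activate Nab2 among other genes, and are then held back by the NAB proteins, which form a negative feedback loop. NR4A proteins are nuclear receptors that need no ligand, so their activity follows their amount, and in T cells both families are known for their parts in activation, anergy and exhaustion.

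RefSeq start-site windows (assembly GRCm38.p6, from 250 bases before to 50 bases after the start) were searched for 7 of the 9 genes. Egr3 had no listed window, and Egr1 was left out of the search, so nothing is said of motifs in either. The windows of the 3 NR4A genes are shown because these relatives differed most among themselves in the knockout, that of Egr2 because it had the largest difference among the EGR genes, and that of Nab2 because it is a known EGR target. Sequences run 5′ to 3′ on the gene's strand, and capitals mark every match, on either strand, to the cyclic AMP response element half-site TGACG, the EGR cores GCGTGGG and GCGGGGG, or the CArG box bound by serum response factor.
Nr4a1, chr15:101266596-101266895, plus strand: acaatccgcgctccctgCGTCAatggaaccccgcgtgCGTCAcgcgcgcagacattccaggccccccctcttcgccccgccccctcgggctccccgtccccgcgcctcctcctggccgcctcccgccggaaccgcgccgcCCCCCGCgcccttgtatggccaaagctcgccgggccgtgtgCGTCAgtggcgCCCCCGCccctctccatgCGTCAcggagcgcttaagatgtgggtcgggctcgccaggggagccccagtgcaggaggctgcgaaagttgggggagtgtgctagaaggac
Nr4a2, chr2:57123954-57124253, minus strand: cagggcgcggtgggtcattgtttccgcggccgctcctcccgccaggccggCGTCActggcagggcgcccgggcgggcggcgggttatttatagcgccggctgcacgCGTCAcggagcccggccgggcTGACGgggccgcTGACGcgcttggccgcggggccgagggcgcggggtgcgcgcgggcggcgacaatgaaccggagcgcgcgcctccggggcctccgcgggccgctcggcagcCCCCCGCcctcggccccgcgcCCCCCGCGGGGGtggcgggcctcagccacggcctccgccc
Nr4a3, chr4:48045055-48045354, plus strand: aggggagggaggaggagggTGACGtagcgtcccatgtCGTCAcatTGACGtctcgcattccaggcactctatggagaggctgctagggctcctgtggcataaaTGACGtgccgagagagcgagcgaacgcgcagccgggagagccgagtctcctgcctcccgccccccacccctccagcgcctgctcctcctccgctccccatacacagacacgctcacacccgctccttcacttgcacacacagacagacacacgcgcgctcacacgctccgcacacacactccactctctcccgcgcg
Egr2, chr10:67537619-67537918, plus strand, number 3 of 5 listed start windows: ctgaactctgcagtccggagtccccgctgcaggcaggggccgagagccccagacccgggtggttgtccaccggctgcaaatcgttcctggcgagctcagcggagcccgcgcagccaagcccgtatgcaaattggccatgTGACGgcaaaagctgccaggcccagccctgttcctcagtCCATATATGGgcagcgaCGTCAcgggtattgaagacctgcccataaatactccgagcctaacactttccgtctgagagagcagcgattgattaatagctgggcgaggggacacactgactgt
Nab2, chr10:127666654-127666953, minus strand: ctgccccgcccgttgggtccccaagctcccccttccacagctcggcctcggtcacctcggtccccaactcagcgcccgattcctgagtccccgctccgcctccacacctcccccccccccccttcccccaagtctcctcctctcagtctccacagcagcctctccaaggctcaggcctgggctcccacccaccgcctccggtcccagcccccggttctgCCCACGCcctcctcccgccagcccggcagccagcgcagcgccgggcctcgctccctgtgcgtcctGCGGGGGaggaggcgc

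Each NR4A window held 4 CRE half-sites. A single half-site or more was found in 20.8% of the 32851 listed mouse promoter windows of 300 bases, and 4 or more in 0.231% of them. The half-site contains a CpG, and the NR4A windows were 72.3%, 81.7% and 64.7% G and C for Nr4a1, Nr4a2 and Nr4a3, against a median of 52.7% over all windows. The Egr2 window printed above combined 1 CArG box at bases -72 to -63 from the start with 2 half-sites. A CArG box with a half-site was present in 0.244% of windows, and a CArG box with or without one in 1.63%. Of the other listed Egr2 windows, 4 and 5, which overlap window 3, held the same combination. Window 2 held a CArG box and no half-site, and window 1 held neither. Egr4 held 2 half-sites and no CArG box. EGR cores numbered 2 in Nab2, 5 in Nab1, 2 in Nr4a1 and 3 in Nr4a2, where 2 of the 3 overlap, and 1 in listed window 1 of Egr2. Of all windows 14.7% held at least 1 and 3.21% at least 2. The cores are rich in G and C, and the Nab1 and Nab2 windows were 81.7% and 74.0% G and C, also above the median of 52.7%. The RUNX motif, searched as TGTGGT and TGCGGT, was matched in 1 of the 7 genes, in another Egr2 window, compared with 22.4% of all windows. The NR4A core AAGGTCA and the AP-1 motif TGANTCA were matched in none of the windows of the 7 genes, and were present in 4.72% and 7.81% of all windows. These are matches of letters in short windows, and binding was not measured.

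**Figure D1:**
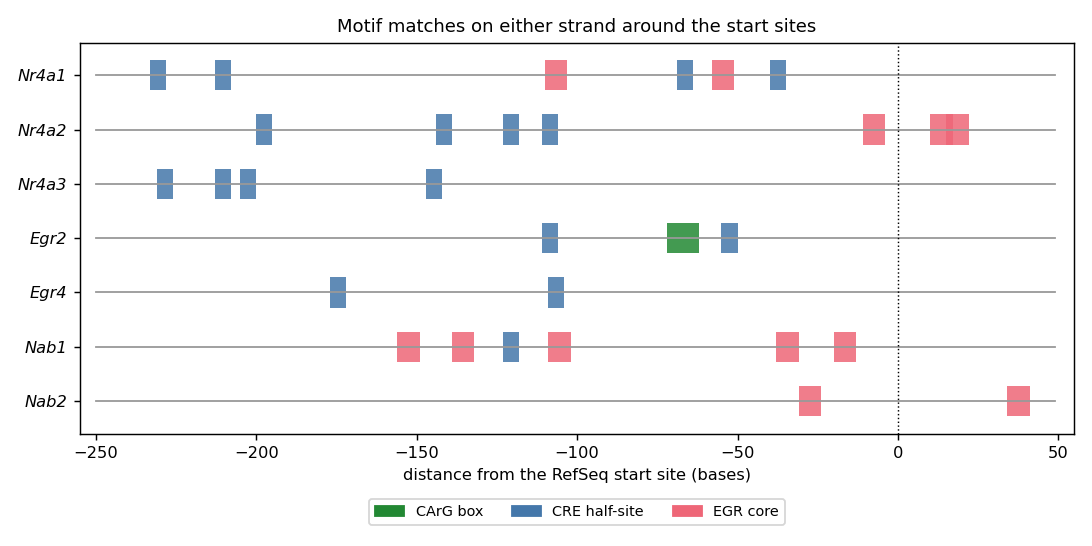
Matches on either strand to the CArG box, the CRE half-site and the EGR core, drawn against distance from the RefSeq start site in bases, with 1 line per gene and listed window 3 for Egr2. Each of the 3 NR4A lines carries 4 half-sites, all before the start, and the CArG box is seen on the Egr2 line.

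The comparison asks how loss of CBFβ alters these factors in stimulated ILC2s. The targeted gene, Cbfb, gave 8.53, 8.73 and 8.70 on the control arrays against 7.88, 7.69 and 7.91 on the knockout arrays, so its transcript was lower in every knockout array but remained present at 56.4% of the control signal. Values of rows are on a log2 scale, where a difference of 1 is a doubling of signal. Past the threshold means a limma p-value under 0.05 after Benjamini-Hochberg adjustment over all 25206 rows. Of the 9 genes, 7 were lower in the knockout and past the threshold, none was higher (all 9 differences were below 0), and Egr4 and Nr4a2 were not past it. Over all rows 4.24% were past it in the lower direction. All 3 knockout arrays lay under all 3 control arrays in 8 of the 9 genes, and in 13.4% of all rows. Of the 7, 5 were lower by at least 1, as were 0.472% of all rows. The median difference was -1.30 over the 9 genes and -0.0067 over all rows. In bulk RNA, fewer cells that express a gene and less transcript per cell cannot be told apart.

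Among the EGR factors, Egr1, the founding member of the family, gave 8.62, 8.37 and 8.10 on the control arrays against 6.99, 7.0 and 7.19 on the knockout arrays. The lowest control array stood 0.91 above the highest knockout array. Its mean fell from 8.36 ± 0.26 to 7.06 ± 0.11 (SD, n = 3), a difference of -1.30 with a standard error (SE) of 0.137, or 40.5% of the control signal on a linear scale. Egr2, which in T cells is linked to anergy and in NKT cells to their development, read 6.58, 6.67 and 6.10 in control and 4.22, 4.89 and 4.27 in knockout. Knockout replicate 2 stood above the other knockout arrays and still 1.21 under the lowest control array. Egr2 fell by 1.99 on the log2 scale (SE 0.209), from 6.45 ± 0.31 to 4.46 ± 0.37, and 25.2% of the control signal remained.

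Egr3, the close partner of Egr2 in lymphocytes, read 6.25, 6.06 and 5.92 in control and 5.25, 5.19 and 5.04 in knockout. The groups were 0.67 apart at their nearest arrays. It fell from 6.08 ± 0.17 to 5.16 ± 0.11, a difference of -0.92 (SE 0.109) that left 53.0% of the signal. Egr4, the member that lacks the region through which NAB proteins bind its relatives, read 2.65, 2.54 and 2.48 in control and 2.54, 2.41 and 2.52 in knockout. These groups overlapped, with a difference of -0.07 (SE 0.087; 95% interval -0.27 to 0.13). Its values lie under 3.6, the median of all group means, where no detection calls separate signal from background, so a change of Egr4 could be hidden. The EGR genes therefore ranged from a difference of -0.07 for Egr4 to -1.99 for Egr2.

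**Figure D2:**
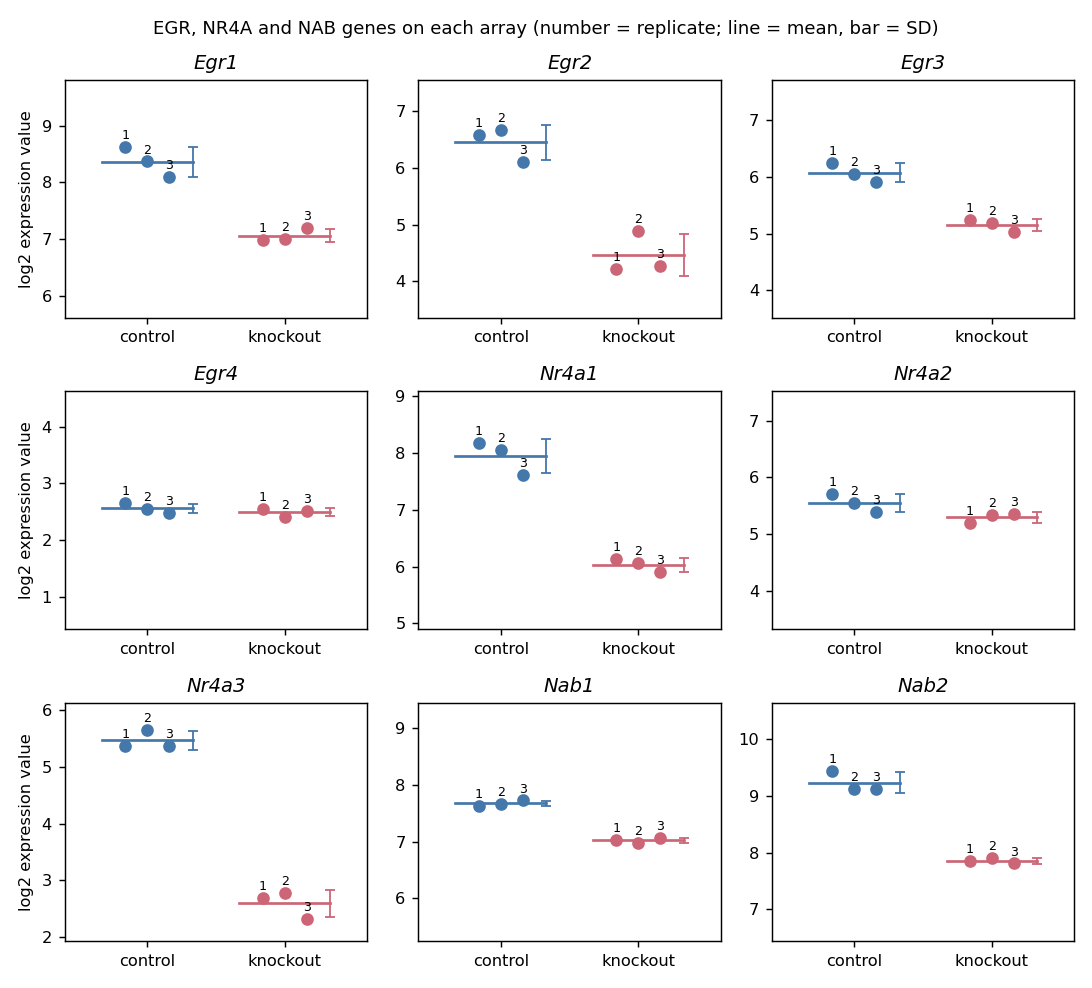
Log2 expression value of each of the 9 genes on each of the 6 arrays, with the replicate number above each point, a line at the group mean and a bar of 1 SD (n = 3). Every panel spans the same 4.2 log2 units, and the groups are separated in all panels but that of Egr4, by as little as 0.03 for Nr4a2 and as much as 2.59 for Nr4a3.

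Within the NR4A receptors the differences were spread more widely. Nr4a1 (Nur77), which rises with the strength of antigen receptor signalling in T cells and is used as a reporter of it, read 8.18, 8.06 and 7.62 in control and 6.13, 6.06 and 5.90 in knockout. Control replicate 3 was the lowest control array, and it was 1.49 above the highest knockout array. Nr4a1 fell from 7.95 ± 0.29 to 6.03 ± 0.12, a difference of -1.92 (SE 0.149), with 26.4% of the signal remaining. Nr4a3 (NOR-1) read 5.37, 5.66 and 5.37 in control and 2.68, 2.78 and 2.32 in knockout. Here the gap between the groups, 2.59, exceeded the range among the knockout arrays (0.46). Nr4a3 fell by 2.87 (SE 0.141), from 5.47 ± 0.17 to 2.59 ± 0.24, and 13.6% of the control signal remained. Since its knockout values lie under 3.6, near background, the size of this fall is approximate and may be understated.

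Nr4a2 (Nurr1), best known for its part in dopamine neurons and also induced in activated lymphocytes, read 5.70, 5.54 and 5.39 in control and 5.19, 5.33 and 5.36 in knockout. The lowest control array exceeded the highest knockout array by 0.03. Its difference of -0.25 (SE 0.104; 95% interval -0.49 to -0.01, not adjusted for the number of rows) was not past the threshold. The 3 NR4A windows printed above hold the same number of CRE half-sites and different numbers of EGR cores. Whether either bears on the differences of these genes was not tested. Ordered by difference, the lowest of all 25206 rows being 1, Nr4a3 stood at 3, Egr2 at 14, Nr4a1 at 17, Nab2 at 51, Egr1 at 68, Egr3 at 169 and Nab1 at 375, while Nr4a2 stood at 2890 and Egr4 at 9166. EGR relatives encode similar zinc fingers and NR4A relatives similar DNA-binding domains. Probe positions are not given in the sources used here, so signal shared between relatives was not tested.

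The corepressors were both lower in the knockout. Nab2, the inducible NAB gene and an EGR target, read 9.45, 9.13 and 9.12 in control and 7.85, 7.90 and 7.81 in knockout. Its knockout arrays lay within 0.09 of each other and 1.22 under the nearest control array. Nab2 fell from 9.23 ± 0.19 to 7.85 ± 0.045, a difference of -1.38 (SE 0.108), with 38.4% of the signal remaining. Nab1, which is expressed more constantly, read 7.63, 7.67 and 7.73 in control and 7.03, 6.98 and 7.07 in knockout. Both groups were tight, with ranges of 0.10 and 0.09, and they were 0.56 apart. Nab1 fell by 0.65 (SE 0.079), from 7.68 ± 0.050 to 7.03 ± 0.045, and kept 63.7% of the control signal.

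**Figure D3:**
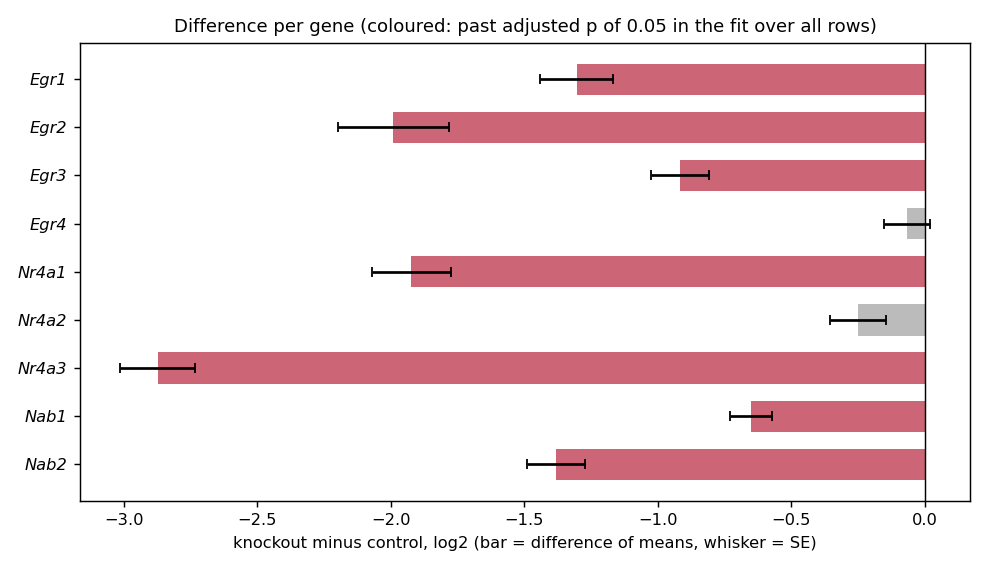
Difference of group means on the log2 scale, knockout minus control, for each of the 9 genes, with whiskers of 1 SE from the limma fit. Coloured bars are past the adjusted threshold and run from -0.65 for Nab1 to -2.87 for Nr4a3, and the grey bars are Egr4 (-0.07) and Nr4a2 (-0.25).

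The arrays of a group were not all alike for these genes. Control replicate 1 gave the highest control value for 6 of the 9 genes (Egr1, Egr3, Egr4, Nr4a1, Nr4a2 and Nab2), and control replicate 3 gave the lowest for 8, counting its tie with replicate 1 for Nr4a3. Averaged over the 9 genes, control replicates 1, 2 and 3 deviated from the control mean by 0.123, 0.0422 and -0.166. Knockout replicates 1, 2 and 3 deviated by -1.27, -1.20 and -1.32, and no knockout array was consistently highest. The AP-1 family showed the same order among the control arrays, at 0.102, 0.0136 and -0.116. So did several other lists described below, such as the other nuclear receptors at 0.0392, -0.00154 and -0.0377, but not all of them. In the average over the 9 genes, the spread among controls was thus small beside the difference between the groups. For Nr4a2 and Egr4 the control range (0.31 and 0.17) was larger than the size of the difference (-0.25 and -0.07). With any 1 array left out, the same 7 genes were past the threshold and Nr4a2 and Egr4 were not.

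Genes with the most similar profile over the 6 arrays, by Pearson correlation across 23184 other named rows, were Ube2j2 (r = 0.998), Kdm6b (0.997) and Scp2 (0.997) for Egr1. For Egr2 they were Rbmx2 (r = 0.997), Pcf11 (0.996) and Myh15 (0.996). Pwp1, Tfip11 and Efhd2 were nearest to Nr4a1 (r = 0.999 each), and Ddx21 (0.999), Gm17745 (0.999) and Vegfc (0.998) to Nr4a3. None of these 12 is a member of either family. The 6 points fall into the 2 groups, so each r mostly restates the difference between groups and is given as a description. Kdm6b, which encodes a histone H3 lysine demethylase, differed by -0.70, the ubiquitin-conjugating enzyme gene Ube2j2 by -0.56, the RNA helicase gene Ddx21 by -0.42 and the lymphatic growth factor gene Vegfc by -0.96. Myh15 read under 3.6 in both groups.

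Other immediate early genes were set beside them. Of 38 listed and measured, 21 were lower and past the threshold, 1 was higher and 16 were not past it, with a median difference of -0.40. The lower share was 55.3%, against 4.24% of all rows, of which 5.51% were higher and past the threshold. All rows include many near background, while only 2 of the 38 early genes had a control mean under 3.6. With only rows above the median level tested, 1564 rows were lower and 1953 higher, from 1068 and 1389 among all rows. Shares over all rows are therefore low for lists of expressed genes, here and below. Ier3, a regulator of cell survival, read 9.83, 9.97 and 9.77 in control and 7.81, 7.98 and 8.01 in knockout (difference -1.92, limma adjusted p = 7.06e-05). Gadd45b, a stress and NF-κB response gene, fell by 1.43 on the log2 scale (limma adjusted p = 0.000142) and Phlda1 by 1.01 (limma adjusted p = 0.000331). The early genes were not uniformly lower. Fos, the classic serum response factor target, read 7.33 in control and 7.55 in knockout on average (difference 0.22, limma adjusted p = 0.239). Jun differed by -0.30 (limma adjusted p = 0.162), Dusp1 by 0.47 (limma adjusted p = 0.0562), and the difference was under 0.1 in size for Btg2, Zfp36, Klf6, Ppp1r15a, Klf10 and Plk2, none of which passed. Rgs1, a brake on chemokine receptor signalling, rose by 0.37 (limma adjusted p = 0.0264), a call lost with any 1 array left out. Fos, Jun, Dusp1 and the 6 genes after them were picked for mention after their values were seen.

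The AP-1 family and the ERK feedback genes are the sets nearest to the EGR and NR4A genes in induction. In the AP-1 family 6 of 12 fell and none rose (0 at an unadjusted limma p under 0.05; median -0.52), led by Fosl2 (-1.32, limma adjusted p = 0.000512), Atf3 (-1.26, limma adjusted p = 0.000643) and Fosl1 (-1.45, limma adjusted p = 0.00114). Among 16 measured DUSP and Sprouty genes, 6 fell and none rose (2 at an unadjusted limma p under 0.05; median -0.24). The lower shares were 50% for AP-1 and 37.5% for DUSP and Sprouty genes, against 4.24% of all rows, of which 5.51% were higher. The ERK phosphatase gene Dusp5 read 8.83, 8.52 and 8.37 in control and 6.84, 6.57 and 6.56 in knockout (difference -1.92, limma adjusted p = 0.000227). Dusp10 fell by 1.19 (limma adjusted p = 0.000453) and Dusp2 by 0.86 (limma adjusted p = 0.00173). Whether the EGR and NR4A genes differed from these sets was not tested. The AP-1 and DUSP members Fosl1, Fosl2, Fosb, Fos, Jun, Junb, Jund, Atf3, Dusp1 and Dusp2 also stand in the list of early genes.

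**Figure D4:**
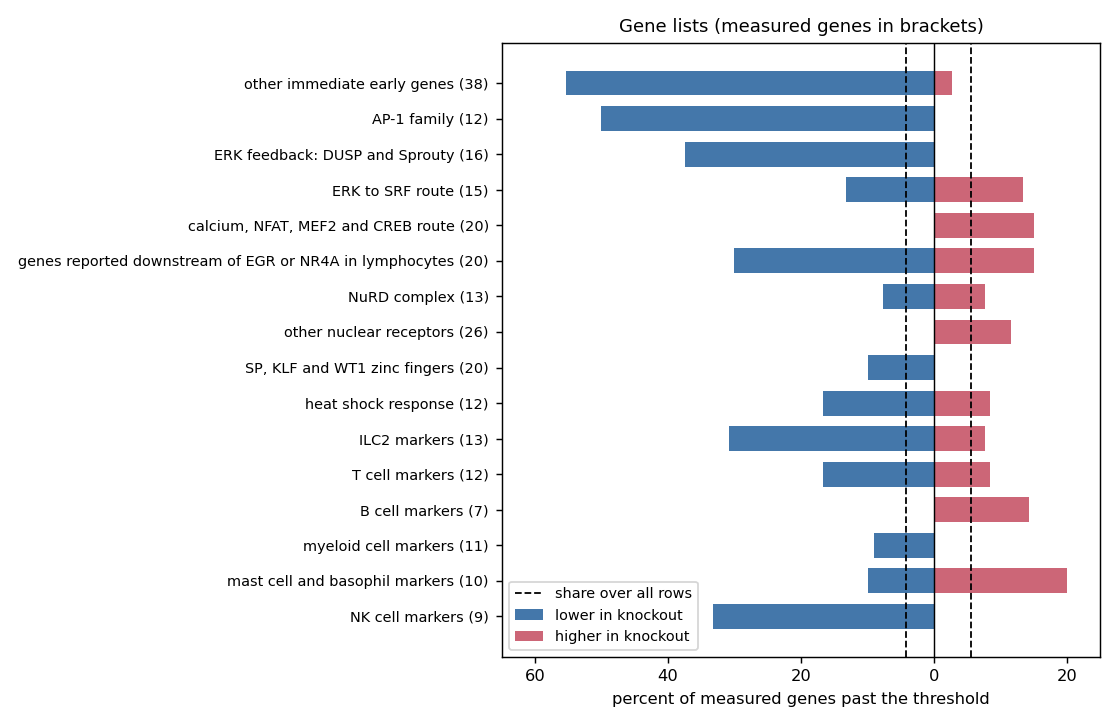
Percent of the measured genes of each list that were past the adjusted threshold, lower in the knockout to the left and higher to the right, with dashed lines at the share over all rows (4.24% and 5.51%). The early genes (55.3%), the AP-1 family (50%) and the ERK feedback genes (37.5%) have the longest bars to the left.

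The signalling routes that switch these factors on had calls in both directions. In the route from RAS and ERK to serum response factor 15 of 22 listed genes were measured, and 2 rose, 2 fell and 11 did not pass (median 0.07), so 13.3% were called in each direction, against 5.51% higher and 4.24% lower over all rows. Rps6ka5, the kinase MSK1 that phosphorylates CREB and histone H3, rose by 0.44 (limma adjusted p = 0.0158), and Mrtfa, a coactivator of serum response factor, rose by 0.50 (limma adjusted p = 0.0248). The kinase gene Rps6ka3 (RSK2) fell by 0.51 (limma adjusted p = 0.0274). Srf itself read 8.48, 8.32 and 8.19 in control and 8.02, 7.92 and 7.76 in knockout, a fall of 0.43 (limma adjusted p = 0.0448). With 1 array omitted, Srf missed the threshold in each of 6 fits (adjusted p 0.0537 to 0.132), Mrtfa in all but that without control replicate 1, Rps6ka3 in all but those without replicate 1 of either group, and Rps6ka5 in those without control replicate 2 or knockout replicates 2 or 3. Of the ternary complex factors that carry ERK signals to serum response factor, Elk1, Elk3 and Elk4 differed by 0.07, -0.25 and 0.09, and none passed. In the calcium, NFAT, MEF2 and CREB route 3 of 20 rose, none fell (0 at an unadjusted limma p under 0.05) and 17 did not pass (median 0.10), so 15% were higher. No measured gene of either route had a control mean under 3.6, so the shares over all rows, many near background, are low beside them. Whether either route differed from expressed rows was not tested. Mef2c, a member of the MEF2 family that drives Nr4a1 in T cells, rose by 0.68 (limma adjusted p = 0.00939), Nfatc3 by 0.47 (limma adjusted p = 0.0145) and the class II deacetylase gene Hdac7, which holds MEF2 back at Nr4a1, by 0.38 (limma adjusted p = 0.0379). Nfatc3 kept its call only without replicate 1 of either group, and Hdac7 only without control replicate 1, among the 6 fits with 1 array left out. Creb1 differed by 0.16 (limma adjusted p = 0.332). Transcript levels do not report the phosphorylation through which these routes act.

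Genes reported to lie downstream of EGR or NR4A factors in lymphocytes moved both ways: of 20 measured, 6 fell, 3 rose and 11 did not pass (median 0.09). The shares were 30% lower and 15% higher, against 4.24% and 5.51% of all rows. Besides the calls described next, Cdkn1a (-0.74), Socs3 (-0.50) and Foxp3 (-0.48) fell and Socs1 (0.48) rose. The inhibitory receptor genes Havcr2, which encodes TIM-3, and Tigit both fell. Havcr2 read 8.25, 7.74 and 7.78 in control and 6.42, 6.40 and 6.37 in knockout (difference -1.53, limma adjusted p = 0.000573), and Tigit differed by -0.84 (limma adjusted p = 0.00144). Ndrg1, an EGR2 target tied to T cell anergy, fell by 0.88 (limma adjusted p = 0.00312). The anergy-associated ubiquitin ligase gene Cblb rose by 0.49 (limma adjusted p = 0.0186), and Id3, which EGR1 induces in thymocytes, rose by 0.82 (limma adjusted p = 0.0106). The costimulatory receptor gene Tnfrsf9, another reported target, read 10.73 in both groups. These last 3 were picked for mention after their values were seen. Without control replicate 2 the counts were 4 lower and 1 higher, and without control replicate 3 or knockout replicate 2 a single gene rose as well.

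Partners and relatives of the EGR and NR4A proteins were read in 3 lists. In the NuRD chromatin complex, which NAB2 recruits through CHD4, 1 of 13 genes fell, 1 rose and 11 did not pass (median -0.10). That is 7.69% in each direction, against 4.24% lower and 5.51% higher over all rows. Chd4 fell by 0.36 (limma adjusted p = 0.0484) and Chd3 rose by 0.44 (limma adjusted p = 0.0128), but Chd4 missed the threshold in all 6 fits without 1 array (adjusted p 0.0593 to 0.143) and Chd3 in 2, those without control replicate 2 (adjusted p = 0.0574) or 3 (adjusted p = 0.0519). Gatad2a differed by -0.19 (limma adjusted p = 0.202). Of 26 other nuclear receptor genes none fell (1 at an unadjusted limma p under 0.05) and 3 rose (median 0.14), or 11.5% against 5.51% of all rows. These were Rora (2.22, limma adjusted p = 0.000562), whose control mean of 3.32 lies under 3.6 so that its rise is approximate, the thyroid hormone receptor gene Thra (1.25, limma adjusted p = 0.00176) and the vitamin D receptor gene Vdr (0.86, limma adjusted p = 0.000871). Among 20 SP, KLF and WT1 zinc finger genes, which bind GC-rich sites as EGR proteins do, 2 fell and none rose (1 at an unadjusted limma p under 0.05; median -0.045), or 10% against 4.24% of all rows. These were Klf16 (-0.64, limma adjusted p = 0.0105) and Klf9 (-0.63, limma adjusted p = 0.0279), and of the 6 fits with 1 array left out Klf9 passed only in that without control replicate 3. Klf12 differed by 0.35 (limma adjusted p = 0.110).

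Among defining ILC2 transcripts, Gata3 read 10.58 and 10.68, Klrg1 11.37 and 11.36 and Il13 12.25 and 12.04 in control and knockout. Thy1, Kit and Il17rb read under 3.6 in both groups, and Rora, which ILC2s need to develop, read 3.32 in control and 5.53 in knockout, so 4 of the 13 measured markers had a control mean under 3.6. Of the 13, 4 fell (30.8%) and 1 rose (7.69%), against 4.24% and 5.51% of all rows. Icos fell from 10.21 to 9.43, Il7r from 8.76 to 8.20, Id2 from 11.01 to 10.66 and Il5 from 11.44 to 11.10. Markers of other cells moved with the groups in part. Among 12 T cell markers 2 fell (16.7%) and 1 rose (8.33%), and among 7 B cell markers 1 rose (14.3%). Of 11 myeloid markers 1 fell (9.09%), and of 10 mast cell and basophil markers 1 fell (10%) and 2 rose (20%). Among 9 NK cell markers 3 fell (33.3%). With 1 array left out the ILC2 falls numbered 2 or 3, the mast cell and basophil rises 1 or 2, the T cell rise was lost, and without control replicate 2 a single NK marker fell. The mean level of the NK list was 5.57 to 5.62 in the control arrays and 5.24 to 5.40 in the knockout arrays, that of the T cell list 4.0 to 4.08 and 3.84 to 3.97, that of the B cell list 2.69 to 2.77 and 2.99 to 3.15, that of the myeloid list 3.50 to 3.61 and 3.37 to 3.49, and that of the mast cell list 3.17 to 3.29 and 3.11 to 3.19. The B cell call was Blnk (3.93 in control and 6.03 in knockout), and the other 6 measured B cell genes had control means of 1.47 to 3.10. In the mast cell list Cpa3 fell by 2.91 on the log2 scale while Hdc and Gata2 rose by 1.46 and 0.76, which cancel in its mean. The part of these markers in the differences of the EGR and NR4A genes was not tested. Heat shock genes respond to handling stress as early genes can. Of 12 measured, 2 fell (16.7%) and 1 rose (8.33%), against 4.24% and 5.51% of all rows, with a median of 0.03. The falls numbered 1 to 3 with 1 array left out. The rise was lost without control replicate 2 or knockout replicates 1 or 2. Their mean levels were 6.13 to 6.27 in control and 6.18 to 6.26 in knockout arrays. Hspa1a, Hspa1b, Hsp90aa1 and Hspb1, 4 of the 12, had control means under 3.6.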

How the data were processed

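Biotin-labelled total RNA of 6 samples was measured on 1-colour arrays, per the labels. The deposited values are log2 expression values, 1 row per Entrez gene. RMA and limma 3.14.4 are listed, with no role, in the submitters' processing notes, and the log2 scale was read from the values (0.66 to 12.51). RMA equalises array distributions and compresses low signals, so a shift of most genes together is hidden and changes of low rows can be understated. Array medians were 3.57 to 3.63, and the number of arrays limits the precision. Values were used as deposited, without a filter. Of 25206 rows 23185 had 1 symbol, updated through Entrez numbers with RefSeq (GRCm38.p6). limma 3.58.1 in R 4.3.3 was fitted to all rows without a block, as knockout minus control, with Benjamini-Hochberg adjustment at 0.05. The fit was checked on simulated data. Members and lists were chosen with earlier results of these data known. Named are all members, Cbfb, up to 3 genes of each pathway list with the smallest adjusted p, the route genes past the threshold and the 3 most correlated rows for 4 members; genes picked later are marked. Of 273 list entries 254 had a row, and the others were not analysed here. Alternatives were a replicate block, leaving out each array, 2 renormalisations, a level filter, other priors, array weights, no moderation and named rows alone.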

Additional observations from a re-analysis of the deposited data

How the results depend on the processing

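The count of EGR, NR4A and NAB genes past the threshold was 7 in each of the 14 alternatives, and Egr4 was not tested when only rows above the median level were kept. Over all alternatives the difference of Nr4a3 lay between -2.97 and -2.74, that of Nr4a1 between -2.09 and -1.81, that of Egr2 between -2.21 and -1.87 and that of Nr4a2 between -0.34 and -0.17. The count over all rows, 2457, was 1307 to 1837 with 1 array left out (1307 without control replicate 2, 1478 without knockout replicate 2, 1517 without knockout replicate 3 and 1565 without control replicate 3) and 1254 with ordinary least squares. It was 3516 with a trended and robust prior and 3517 when only rows above the median level were tested. The count over the 239 distinct list genes, 67, was 38 to 58 with 1 array left out, 38 being without control replicate 2, 39 with ordinary least squares, and 83 with either the trended and robust prior or the level filter. With ordinary least squares 11 other early genes were lower, in place of 21. With the replicate number as a block 7 of the 9 genes, 1745 rows and 54 list genes passed. Deviations of same-numbered arrays were only weakly correlated across rows (r = 0.0249, 0.00669 and 0.0539 for replicates 1, 2 and 3). Pairs with unlike numbers ran from -0.0651 (control replicate 1 with knockout replicate 3) to 0.0435 (control replicate 1 with knockout replicate 2). All are near 0, so whether the numbers mark pairs cannot be told from them. No array carries detection calls, which limits what can be said of Egr4 and of Nr4a3 in the knockout.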
